A study of Homo sapiens with 2 samples.

Results

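The genes described here encode the machinery that shortens, decaps and degrades messenger RNA and the machinery of small RNAs. They are 55 of the 18417 genes that had a probe set of their own on the array. They were chosen by function from a fixed list of symbols, drawn up with earlier results of these arrays in view, so their values are given as a description. Where a gene had several probe sets, the one used was selected on the higher average signal of the 2 arrays. All 55 symbols stood in the platform annotation, and all 55 genes were detected on both arrays. In role they were 15 deadenylation genes, 19 decapping and exosome genes, 4 nonsense-mediated decay factors, 13 microRNA genes and 4 RNA-binding proteins that direct decay.

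The arrays compared Huh-7 cells given DEPDC1 siRNA for 72 h with Huh-7 cells given NC, the control transfection, for the same 72 h. Huh-7 is an established human hepatocellular carcinoma cell line. Each group had 1 array of total RNA, so every difference below is a single measured value with no replicate check and no test. The siRNA sequence and the composition of NC are not given in the labels.

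The removal of an mRNA usually starts at its poly(A) tail. The CCR4-NOT and PAN2-PAN3 complexes shorten the tail, DCP2 and its partners then remove the cap, and the body is digested from its 5′ end by XRN1 or from its 3′ end by the RNA exosome. MicroRNAs enter the same route: DROSHA and DICER1 cut them out of longer transcripts, an Argonaute protein carries them to a target, and a TNRC6 protein links the Argonaute to the deadenylases. In mouse liver, loss of CCR4-NOT subunits such as CNOT1 or CNOT3 from hepatocytes is known to stabilise many mRNAs.

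The targeted transcript had a log2 expression of 5.15 in the siRNA array and 7.82 in the NC array (DEPDC1, difference -2.67). Detection was set at 4.66, the median over the whole table, and 11352 genes reached it on 1 array or both. Every one of the 13 hepatocyte markers with a probe set of its own was detected, with values of 4.19 to 11.4 in the siRNA array and 5.52 to 11.9 in the NC array. Their summed signal, as log2, was 13.4 against 14.0, and in the siRNA array 8 of the 13 were lower by 1.5-fold or more (AFP differed by -1.97 and SERPINA1 by -1.67). Of the same list, 3 were higher, 1 of them past 2-fold, TTR, which was named after its value was seen (1.41). Of 14 fibroblast and stellate cell markers, 7 were detected and 3 were at least 1.5-fold higher, among them LUM (2.31) and FBN1 (2.19), and their summed signal was 10.7 against 9.17. The median difference of the 7 was 0.11, and the other 4 detected markers lay between -0.04 and 0.11. Of the endothelial markers 1 of 8, of the T and B cell markers 0 of 5 and of the myeloid markers 3 of 7 were detected. Summed signals of these 3 lists were 6.79 against 6.86, 6.12 against 6.05 and 8.21 against 7.91. The part of these markers in the differences below was not tested. In bulk RNA, fewer cells of a type and less RNA per cell cannot be told apart.

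None of the 55 members was at least 2-fold higher in the siRNA array and none at least 2-fold lower, while 1.94% and 0.863% of all detected genes were. At 1.5-fold, 0 members were higher and 2 were lower, CNOT6 and ZFP36L2, against 6.03% and 3.74% of the detected genes. Past a difference of 0.32 on the log2 scale, 3 were higher (DROSHA, EXOSC1 and EXOSC8) and 7 were lower (CNOT6, ZFP36L2, PUM2, TNRC6C, XRN1, EXOSC9 and DGCR8), where 16.7% and 12.0% of the detected genes passed that limit. The share of members was thus under the background in the higher direction at 0.32 and at 1.5-fold. At 2-fold the background shares are too small for 0 of 55 members to stand out, and CNOT6 fell just short at -0.98. In the lower direction the share of members was close to the background, with 12.7% of the members past 0.32 and 3.64% past 1.5-fold. With no filter on low values these backgrounds were 9.57% and 2.54%, under the members' shares. By sign alone, 24 members were higher, 30 were lower and UPF2 had the same deposited value on both arrays. Of all detected genes, 49.9% were higher and 48.1% lower, and 225 had equal values.

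The size of the differences was also ordinary. Their median size without regard to sign was 0.23 on the log2 scale for the members and 0.19 for all detected genes, and their SD across genes was 0.28 for the members and 0.40 for all detected genes. A gauge of the spread between probe sets of a gene came from 392 genes with several detected probe sets of unequal values. Within a gene, the differences of its probe sets spanned a median of 0.12 and a 90th percentile of 0.44. The gauge compares probe sets on the same arrays, so it does not measure variation between cultures, transfections or repeat arrays. It is a span between probe sets, while a member is placed against it by the size of a single difference, so it serves as a rough scale only. Only CNOT6, ZFP36L2, PUM2, TNRC6C and DROSHA lay beyond that 90th percentile. Without replicates, this cannot show that they exceed the variation between repeat experiments. The signs of all differences, larger or smaller, are given as measured.

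**Figure D1:**
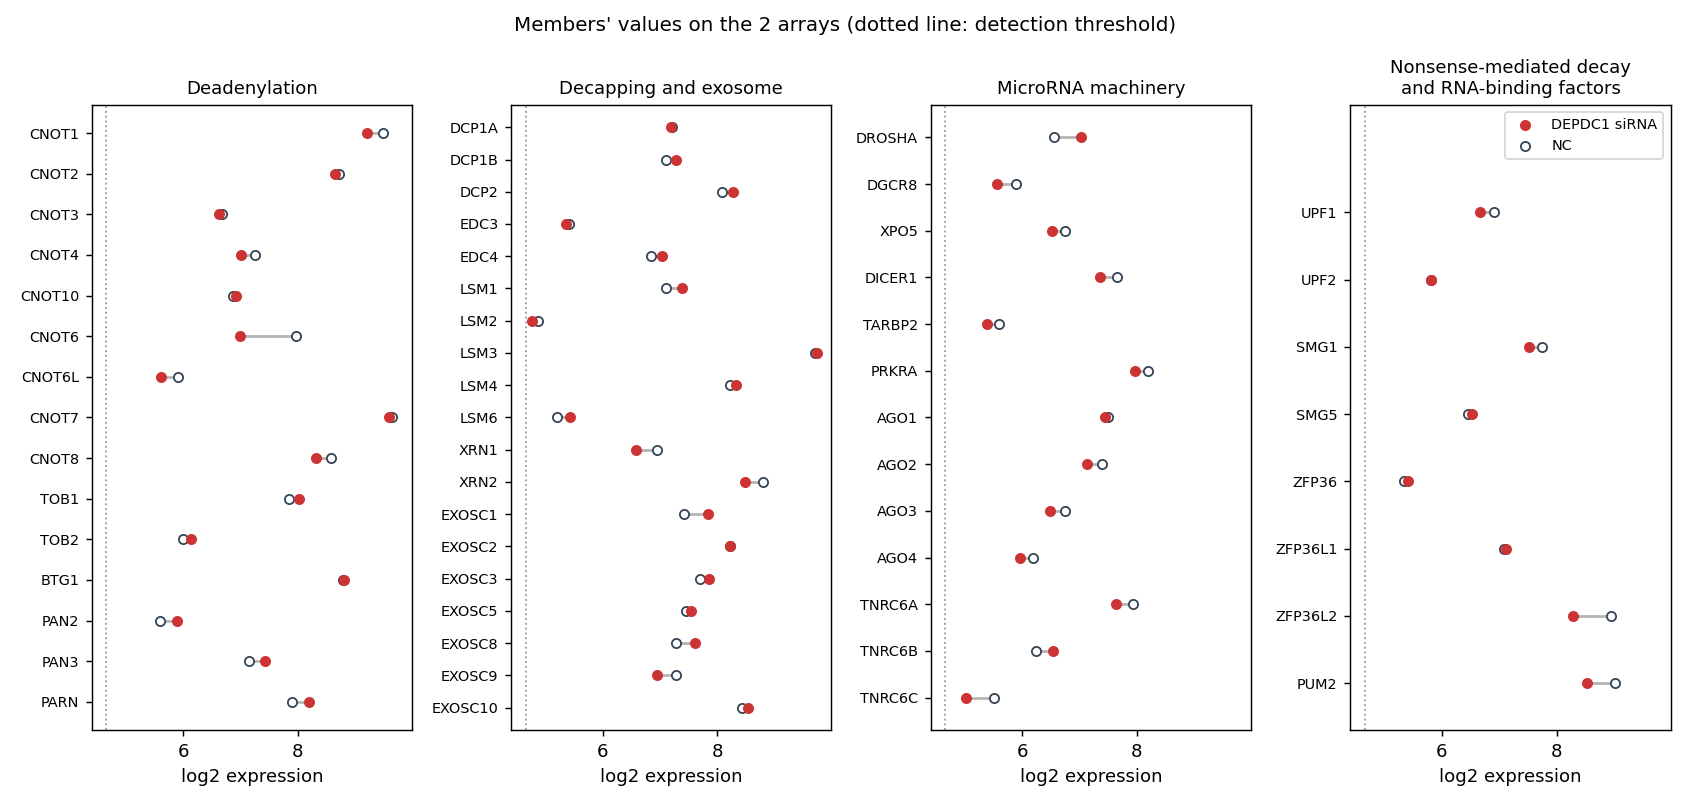
Log2 expression of the 55 members in the DEPDC1 siRNA array (filled) and the NC array (open), by role. The widest gap is that of CNOT6 (6.99 in siRNA, 7.97 in NC), and the positions of different genes along the axis are not comparable levels because probes differ.

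Most CCR4-NOT members had the opposite sign to PAN2, PAN3 and PARN. In the siRNA array, 8 of the 9 CCR4-NOT members were lower, against 48.1% of all detected genes, with a median difference of -0.25. PAN2, PAN3 and PARN were all higher by nearly the same amount, where 49.9% of all detected genes were higher. The 15 deadenylation genes together had a median of -0.04, next to 0.00 over all detected genes.

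CNOT6 was the member with the largest difference. It encodes a poly(A) nuclease of the CCR4 type, which shares the CCR4-NOT complex with a nuclease of the CAF1 type. CNOT6 (probe set 8110589) had a log2 expression of 6.99 in the siRNA array and 7.97 in the NC array. The difference of -0.98 is 1.98-fold lower, just short of 2-fold, and 105 of the 11352 detected genes, 0.925%, were as low or lower. CNOT6L, its paralog, had 5.61 in the siRNA array and 5.90 in the NC array, a difference of -0.29. A second CNOT6L probe set gave -0.31, so both probe sets of the paralog lay well above CNOT6. The difference of CNOT6 minus that of CNOT6L was -0.69 on the log2 scale.

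The CAF1-type nucleases moved less. CNOT8 had 8.31 in the siRNA array and 8.57 in the NC array, a difference of -0.26. CNOT7, the second enzyme of this type, had 9.59 in the siRNA array and 9.64 in the NC array, and its difference of -0.05 was smaller than the gauge's median of 0.12. All 4 deadenylase subunits of CCR4-NOT were thus lower with the siRNA, from -0.98 to -0.05, where 48.1% of all detected genes were lower.

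Among the subunits without nuclease activity, CNOT1, the scaffold on which the complex is built, had 9.20 in the siRNA array and 9.49 in the NC array (difference -0.29). CNOT4, a ubiquitin ligase associated with the complex, had 7.01 in the siRNA array and 7.26 in the NC array (-0.25). CNOT2 and CNOT3 form the module at the end of the scaffold that many RNA-binding proteins contact. Their differences were -0.08 and -0.04, and CNOT10, which binds the other end of CNOT1, differed by 0.05. These last 3 subunits lay under the gauge's median of 0.12. CNOT6L, CNOT8, CNOT1 and CNOT4 lay between that median and the 90th percentile of 0.44. Within the complex only CNOT6 lay beyond that percentile, which reflects the spread between probe sets and not between replicates.

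PAN2 and PAN3 act together, PAN2 as the nuclease and PAN3 as the adaptor that binds it to the mRNA. PAN2 had 5.88 in the siRNA array and 5.60 in the NC array, a difference of 0.28. PAN3 had 7.43 in the siRNA array and 7.14 in the NC array, also a difference of 0.28. PARN, a separate poly(A) nuclease that also trims the ends of small nucleolar and telomerase RNA, had 8.20 in the siRNA array and 7.90 in the NC array, a difference of 0.30. The 3 genes spanned only 0.28 to 0.30, and 17.9% to 19.3% of the detected genes were as high or higher, so each alone was an unremarkable value.

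TOB1, TOB2 and BTG1 encode antiproliferative proteins that bind the CAF1-type nucleases and help recruit them to mRNAs. TOB1 had 8.02 in the siRNA array and 7.84 in the NC array (difference 0.18), and TOB2 differed by 0.15. BTG1 was almost level, with 8.80 in the siRNA array and 8.79 in the NC array, and its sign turned under quantile normalization (0.0059 as deposited, -0.0098 after it).

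The upstream sequences of CNOT6 and of the 3 higher deadenylase genes are shown because these genes held the lowest value and the tightest set of higher values among the deadenylation genes. Each is the 250 bases before the RefSeq transcription start on GRCh38.p14, 5′ to 3′ on the gene's strand. Capitals mark every match to CCAAT or its reverse complement ATTGG and every match to the GC box GGGCGG or its reverse complement CCGCCC. The TATA box TATAAA was searched on both strands as well and is in none of these windows. CNOT6 lies on the plus strand at chr5:180494129-180494378. PAN2, the first of its 2 windows, lies on the minus strand at chr12:56334001-56334250. PAN3 lies on the plus strand at chr13:28138295-28138544, and PARN on the minus strand at chr16:14630261-14630510.
CNOT6: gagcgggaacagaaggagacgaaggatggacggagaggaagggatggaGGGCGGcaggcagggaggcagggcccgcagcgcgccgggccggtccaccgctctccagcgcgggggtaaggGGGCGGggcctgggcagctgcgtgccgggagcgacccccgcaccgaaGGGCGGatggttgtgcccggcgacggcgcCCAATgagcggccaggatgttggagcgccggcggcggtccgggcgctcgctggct
PAN2: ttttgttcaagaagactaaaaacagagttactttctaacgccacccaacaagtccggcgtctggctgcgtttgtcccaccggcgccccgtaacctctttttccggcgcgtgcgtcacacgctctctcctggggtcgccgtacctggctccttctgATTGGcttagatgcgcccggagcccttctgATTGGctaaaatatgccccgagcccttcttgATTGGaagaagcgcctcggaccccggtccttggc
PAN3: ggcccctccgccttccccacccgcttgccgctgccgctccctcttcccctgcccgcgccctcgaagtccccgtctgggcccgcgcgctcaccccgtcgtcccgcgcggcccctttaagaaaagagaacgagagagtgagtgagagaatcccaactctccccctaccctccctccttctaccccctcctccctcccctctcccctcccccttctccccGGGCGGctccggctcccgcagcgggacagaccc
PARN: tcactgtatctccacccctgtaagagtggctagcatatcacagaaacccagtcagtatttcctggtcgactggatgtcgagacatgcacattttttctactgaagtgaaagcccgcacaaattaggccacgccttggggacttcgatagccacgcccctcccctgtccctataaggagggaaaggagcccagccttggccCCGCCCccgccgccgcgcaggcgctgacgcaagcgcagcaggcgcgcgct

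The CNOT6 window held 1 CCAAT match and 3 GC boxes. PAN2 held 3 CCAAT matches and no GC box, while PAN3 and PARN held 1 GC box each and no CCAAT match. None of these motifs was in the windows of all 3 genes with nearly equal differences, and a link between motifs and differences was not tested. Over the 35116 windows of the RefSeq table, 32.0% held CCAAT, 42.6% the GC box and 10.7% TATAAA on either strand. Of the 48 members whose window was used, counting 1 window a gene, 25 held CCAAT, 37 the GC box and 2 TATAAA. The members were filtered by chromosome before this count, and the 35116 windows were not. A match is a description of the letters and not a bound site. No window was used for CNOT1, CNOT7, LSM1, LSM6, EXOSC1, AGO2 and ZFP36L2, either because of that filter or because the sequence source held none.

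**Figure D2:**
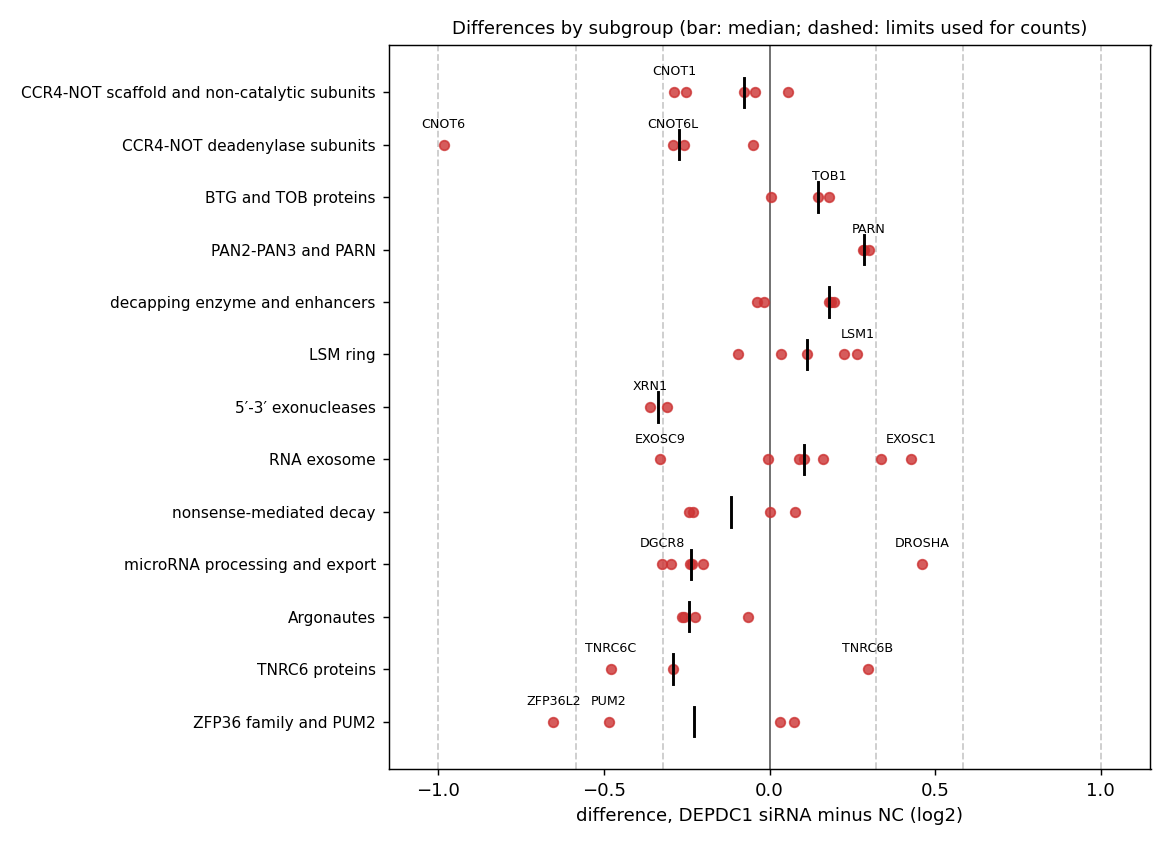
Difference of each member, DEPDC1 siRNA minus NC on the log2 scale, by subgroup, with a bar at the subgroup's median and dashed lines at 0.32, 0.58 and 1 in each direction. CNOT6 stands at -0.98, and the 3 genes PAN2, PAN3 and PARN sit together near 0.28. All 4 Argonautes lie left of 0, as do 48.1% of all detected genes.

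Of the 10 genes of the decapping enzyme, its enhancers and the LSM ring, 7 were higher in the siRNA array, against 49.9% of all detected genes, with a median difference of 0.15 and a range of -0.09 to 0.27, so none passed 0.32 and all lay within the gauge's 90th percentile of 0.44. DCP2, the enzyme that cuts the cap, had 8.27 in the siRNA array and 8.09 in the NC array (difference 0.19). EDC4, the scaffold that holds DCP2 to its activator, had 7.03 in the siRNA array and 6.84 in the NC array (0.20). The 2 paralogs of the activator differed in sign: DCP1B had 7.28 in the siRNA array and 7.10 in the NC array (0.18), and DCP1A was at -0.02. EDC3, another enhancer of decapping, was at -0.04.

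The LSM proteins form a ring that binds the shortened tail and recruits the decapping enzyme. LSM1, the subunit that sets the cytoplasmic ring apart from the nuclear one, had 7.38 in the siRNA array and 7.11 in the NC array (difference 0.27). LSM6 had 5.43 in the siRNA array and 5.21 in the NC array (0.22). LSM4 and LSM3 differed by 0.11 and 0.04. LSM2 was at -0.09, and its 3 probe sets held identical values and count as 1 measurement. LSM2 also lay closest to the detection threshold, with 4.77 in the siRNA array and 4.87 in the NC array, and background signal can compress the differences of dim genes.

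Both exonucleases that start at the 5′ end were lower. XRN1, which digests decapped mRNA in the cytoplasm, had 6.58 in the siRNA array and 6.94 in the NC array, a difference of -0.36 or 1.28-fold lower. XRN2, its nuclear relative, which helps to end transcription, had 8.48 in the siRNA array and 8.79 in the NC array, a difference of -0.31. XRN1 minus XRN2 was -0.05, and 10.1% and 12.6% of the detected genes were as low or lower. The sign of the 2 exonucleases was thus opposite to that of DCP2 and most of its partners.

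The RNA exosome was mixed, with 5 of 7 subunits higher, against 49.9% of all detected genes, 2 lower and a median of 0.10. EXOSC1, a subunit of the cap through which RNA enters, had the largest difference of the 19 decapping and exosome genes, with 7.84 in the siRNA array and 7.41 in the NC array (0.43, or 1.34-fold higher). The other cap subunits, EXOSC3 and EXOSC2, were at 0.16 and -0.0049, and EXOSC2 turned to 0.0077 when differences were centred on the median of all probe sets. In the ring of the complex, EXOSC8 had 7.61 in the siRNA array and 7.27 in the NC array (0.34), whereas EXOSC9 had 6.95 in the siRNA array and 7.28 in the NC array (-0.33). EXOSC5, also of the ring, was at 0.09. Subunits that occupy the same ring therefore differed in opposite directions by like amounts. EXOSC10, a nuclease of the nuclear exosome, had 8.54 in the siRNA array and 8.44 in the NC array (0.10).

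In nonsense-mediated decay, which removes mRNAs with premature stop codons, 2 of 4 members were lower, against 48.1% of all detected genes. None passed 0.32 by the probe set used. UPF1, the helicase at the centre of the pathway, had 6.66 in the siRNA array and 6.91 in the NC array (difference -0.24). SMG1, the kinase that phosphorylates UPF1, had 7.52 in the siRNA array and 7.75 in the NC array (-0.23). SMG1 has close pseudogene copies, and its value is uncertain for that reason. The 13 further probe sets that the annotation shares between SMG1 and these copies differed by -0.68 to -0.22. Their median of -0.44 was past 0.32 in size. UPF2, which bridges UPF1 to the exon junction complex, had 5.82 on both arrays, and SMG5, which acts on phosphorylated UPF1, differed by 0.08.

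MicroRNA genes were the role group most often lower. Of the 13, 11 were lower in the siRNA array, against 48.1% of all detected genes, and the group's median was -0.24. The lower values were small and alike: 9 of them lay between -0.32 and -0.20, where single genes do not stand out from the background, and 2 of the 13, DGCR8 at the low edge of that range and TNRC6C, passed -0.32. The 2 exceptions with a higher value were DROSHA and TNRC6B.

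**Figure D3:**
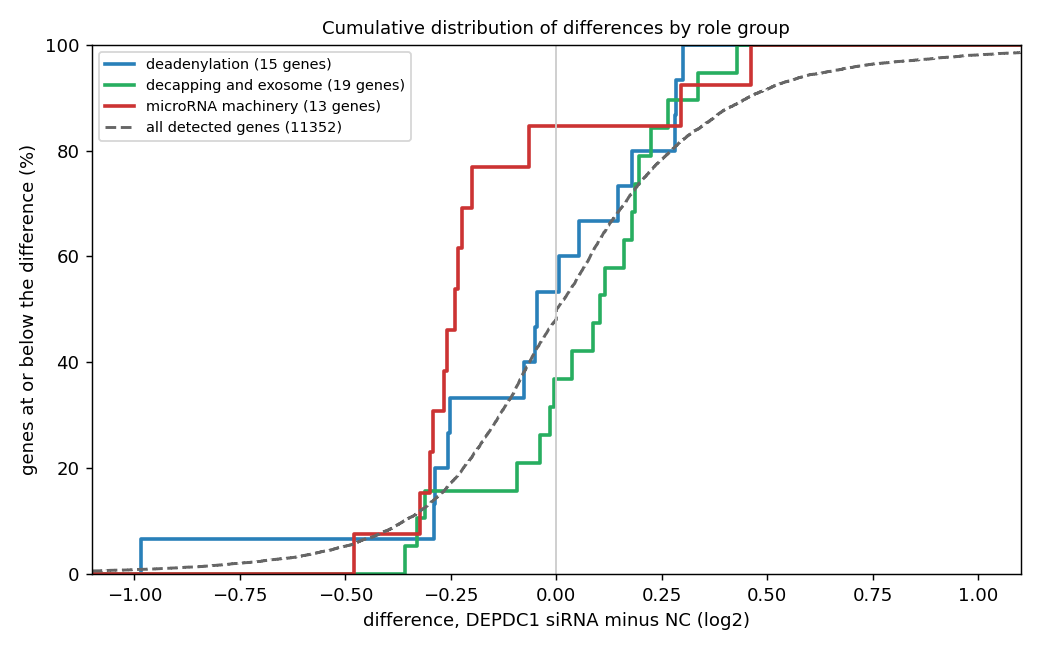
Share of genes (%) at or below each difference, DEPDC1 siRNA minus NC on the log2 scale, for the deadenylation, decapping and exosome, and microRNA genes and for all 11352 detected genes (dashed). The microRNA curve climbs steeply between -0.32 and -0.20 and stands at 84.6% at 0, where the curve of all detected genes is near 50%.

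Of the pairs set side by side, the Microprocessor, the nuclear complex that starts microRNA maturation, had the widest opposition. DROSHA, its nuclease, had 7.02 in the siRNA array and 6.56 in the NC array, a difference of 0.46 or 1.38-fold higher. DGCR8, the partner that binds the RNA, had 5.56 in the siRNA array and 5.89 in the NC array, a difference of -0.32. The 2 differences lay 0.78 apart, the largest gap among the 19 pairs of paralogs and partners that were set side by side. The comparison was first planned for paralogs, and this pair of partners was added to it. The paralogs TNRC6B and TNRC6C lay nearly as far apart (0.77), so the ranking depends on the pairs chosen.

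The next steps of maturation all had lower values. XPO5, which exports the hairpin from the nucleus, had 6.51 in the siRNA array and 6.75 in the NC array (difference -0.24). DICER1, which cuts the hairpin to its mature length, had 7.35 in the siRNA array and 7.65 in the NC array (-0.30). TARBP2 and PRKRA, the RNA-binding partners of Dicer, were at -0.20 and -0.23. With DGCR8, the 5 lower genes of this subgroup lay between -0.32 and -0.20, and DROSHA stood apart from all of them.

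The upstream sequences of DROSHA and DGCR8 are shown because these partners differed in opposite directions. The windows, build and capitals are as above. DROSHA lies on the minus strand at chr5:31532094-31532343, and DGCR8 on the plus strand at chr22:20079991-20080240.
DROSHA: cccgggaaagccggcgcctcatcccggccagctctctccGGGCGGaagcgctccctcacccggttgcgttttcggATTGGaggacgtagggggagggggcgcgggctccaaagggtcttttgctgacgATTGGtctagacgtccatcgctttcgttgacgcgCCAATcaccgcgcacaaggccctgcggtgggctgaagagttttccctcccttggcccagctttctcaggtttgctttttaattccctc
DGCR8: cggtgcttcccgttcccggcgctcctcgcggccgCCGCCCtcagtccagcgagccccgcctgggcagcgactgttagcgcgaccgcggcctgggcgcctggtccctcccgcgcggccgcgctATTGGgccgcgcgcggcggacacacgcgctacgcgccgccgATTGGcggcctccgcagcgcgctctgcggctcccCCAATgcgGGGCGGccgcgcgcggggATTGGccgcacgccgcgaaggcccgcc

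Both windows held several CCAAT matches, 3 in DROSHA and 4 in DGCR8, and GC boxes, 1 in DROSHA and 2 in DGCR8. A link between these motifs and the differences of the 2 genes was not tested. TATAAA is in neither window.

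All 4 Argonautes, the proteins that carry the small RNA, were lower, against 48.1% of all detected genes. From 15.8% (AGO3) to 39.7% (AGO1) of the detected genes were as low or lower, so each alone was an unremarkable value. AGO2, the member able to cut its target, had 7.13 in the siRNA array and 7.39 in the NC array (difference -0.26). AGO3 had 6.48 in the siRNA array and 6.75 in the NC array (-0.27). AGO4 had 5.96 in the siRNA array and 6.19 in the NC array (-0.22). AGO1 differed least, with 7.43 in the siRNA array and 7.50 in the NC array (-0.07). AGO1, AGO3 and AGO4 are neighbours on 1 chromosome while AGO2 lies elsewhere. The differences of AGO2 and AGO3 were 0.0060 apart, and a part of gene position was not tested.

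The TNRC6 proteins, which tie the Argonautes to CCR4-NOT and PAN2-PAN3, did not share a sign. TNRC6C had 5.02 in the siRNA array and 5.50 in the NC array, a difference of -0.48, and 5.84% of the detected genes were as low or lower. TNRC6A had 7.63 in the siRNA array and 7.92 in the NC array (-0.29). TNRC6B had 6.54 in the siRNA array and 6.25 in the NC array (0.30). TNRC6B and TNRC6C were thus 0.77 apart, close to the gap between DROSHA and DGCR8.

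Among the proteins that bring deadenylases to chosen mRNAs, 2 of 4 were lower by more than 0.32, against 12.0% of the detected genes. ZFP36L2, which binds AU-rich elements, had 8.29 in the siRNA array and 8.94 in the NC array. Its difference of -0.65 is 1.57-fold lower, and 2.92% of the detected genes were as low or lower. PUM2, a Pumilio protein that binds its own motif in 3′ untranslated regions, had 8.54 in the siRNA array and 9.02 in the NC array, a difference of -0.48 or 1.40-fold lower. The other members of the ZFP36 family were nearly level. ZFP36, or tristetraprolin, had 5.41 in the siRNA array and 5.33 in the NC array (0.07), and ZFP36L1 had 7.11 in the siRNA array and 7.08 in the NC array (0.03). ZFP36L2 was 0.73 below ZFP36 and 0.68 below ZFP36L1 in its difference.

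Other genes of the same pathways, listed by function, were compared with the members. For the counts of these lists, 49.9% of all detected genes were higher and 48.1% lower. At 1.5-fold, 6.03% were higher and 3.74% lower. Among 17 further deadenylation genes, 6 were higher and 11 lower, none by 1.5-fold, with a median of -0.08. CNOT11, the partner of CNOT10, had 8.12 in the siRNA array and 8.56 in the NC array (difference -0.44), and NOCT, a circadian relative of CNOT6, had 6.48 in the siRNA array and 6.06 in the NC array (0.42). CNOT11 shared the sign of most CCR4-NOT members. PDE12, a mitochondrial poly(A) nuclease named after its value was seen, differed by -0.39, a sign opposite to that of PAN2, PAN3 and PARN. Among 13 further decapping genes, 5 were higher and 7 lower, none by 1.5-fold, and the median was -0.03, or -0.15 with detection at the 75th percentile. LSM5, found in both LSM rings, differed by 0.50, and LSM8, which defines the nuclear ring, by -0.52. LSM1 and LSM8, the subunits that tell the 2 rings apart, thus had opposite signs.

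The list of other exosome and cofactor genes held the 2 largest decreases among these other genes of the pathways. Of 18 genes, 8 were higher and 10 lower, with a median of -0.08 and 2 at least 1.5-fold lower, where 3.74% of all detected genes were. DIS3L, the nuclease of the cytoplasmic exosome, had 5.23 in the siRNA array and 6.14 in the NC array, a difference of -0.91 or 1.88-fold lower. ERI1, an exonuclease that trims histone mRNA and ribosomal RNA, had 6.47 in the siRNA array and 7.26 in the NC array (-0.78). DIS3L thus came close to CNOT6 in size, while the nuclease EXOSC10 did not share its direction. Nor did DIS3, of the same list and named after its value was seen, which differed by 0.41.

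The lower values of the core microRNA genes had no counterpart in the wider list. Among 25 further microRNA pathway genes, 12 were higher and 13 lower, with a median of -0.02. LIMD1, which binds Argonaute and TNRC6 proteins, had 6.26 in the siRNA array and 6.93 in the NC array (difference -0.68). LIN28A, which blocks let-7 maturation, had 4.74 in the siRNA array and 3.90, under the threshold, in the NC array, so that it was at least 1.06-fold higher. Of 14 further nonsense-mediated decay genes, 6 were higher and 7 lower with a median of -0.02, and none passed 0.32. MAGOH differed by 0.26 and STAU1 by -0.21. Of 20 further RNA-binding proteins of mRNA stability, 6 were higher and 14 lower, against 49.9% and 48.1% of all detected genes, with a median of -0.10. SAMD4B, a relative of the fly deadenylation factor Smaug, was the 1 gene past 1.5-fold, where 6.03% of all detected genes were as much higher. It had 6.94 in the siRNA array and 6.28 in the NC array (0.66). No difference between these lists and the members was tested.

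Messenger RNAs with known AU-rich elements, the class of target that the ZFP36 family binds, went both ways. Of 21 detected, 12 were higher and 9 lower in the siRNA array, with a median of 0.03 next to 0.00 over all detected genes. With detection at the 75th percentile the sign of that median turned, to -0.08 next to 0.02. EREG, an EGF receptor ligand, differed by 2.92, KLF6 and MYC, both transcription factors, by 0.71 each, and CCL20, a chemokine, by -1.32. The list was drawn up by function and holds a mixture of transcripts with other controls, and mRNA half-lives were not measured.

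**Figure D4:**
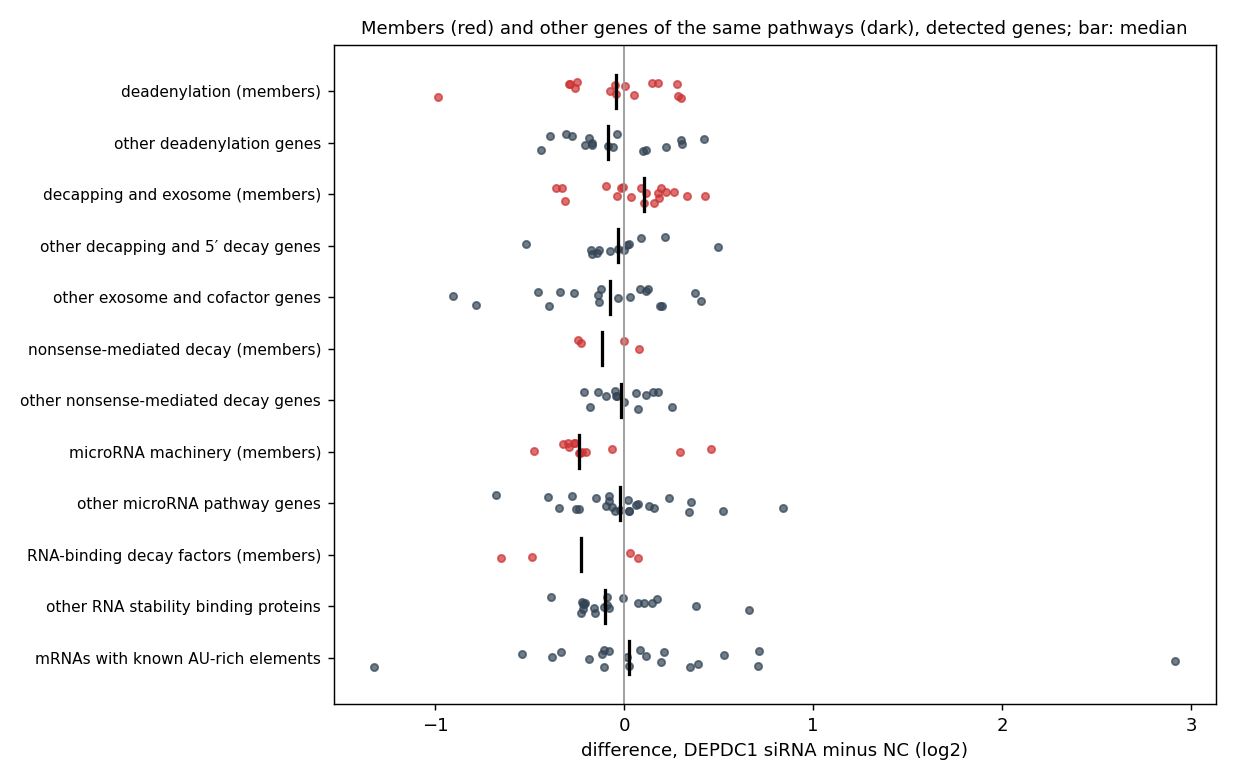
Difference of each detected gene, DEPDC1 siRNA minus NC on the log2 scale, for the members' role groups (red) and for other genes of the same pathways (dark), with a bar at the median. The microRNA members have a median of -0.24 and the other microRNA pathway genes one of -0.02.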

How the data were processed

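Total RNA of Huh-7 cells was measured on 1 Affymetrix array per group 72 h after transfection. The submitters' processing notes name 2 programs, Transcriptome Analysis Console 3.0 and Affymetrix Expression Console. Their roles, the background correction and the normalization are not given in the sources used here. The authors deposited 1 value per probe set for 33297 probe sets. No label gives the unit, and the deposited values, between 1.39 and 12.7 (median 4.64 in siRNA, 4.67 in NC), were taken as log2 expression and used unscaled.

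GEO's platform annotation named 1 gene for 19460 probe sets, several for 1754 and none for 12083. Symbols were updated by Entrez identifier against RefSeq GRCh38.p14 (19429 matched). Probe sets of several genes or none were left out. Differences are siRNA minus NC. With 1 array per group no test was possible, so counts past log2 differences of 0.32, 0.58 (1.5-fold) and 1 (2-fold) are given beside the percentage of all detected genes. The code was run on simulated data with added differences larger than that of any member. That run checks the counting only and does not bear on the small differences reported here. Python 3.11.15, pandas 2.3.3 and numpy 2.4.6 were used.

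The members and lists were chosen with earlier results of these data known. Named genes were all members, the target, the most different genes of each related list (those past 1.5-fold, at most 4, or the first 2 where none passed) and at most 4 markers past 2-fold. The 6 alternatives tried are given in the closing section.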

Additional observations from a re-analysis of the deposited data

How the results depend on the processing

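No paired analysis was possible because each group had 1 array, and for the same reason no array could be left out. The 6 other settings were the average of all probe sets of a gene, differences centred on the median of all probe sets, quantile normalization, detection at the 75th percentile, no filter, and values under the threshold raised to it. The counts of members past each fold stayed within 1.5 times under all 6, with 5 to 8 members lower by at least 0.32 on the log2 scale, 2 or 3 higher, 2 at least 1.5-fold lower and 0 past 2-fold. No member's difference shifted by over 0.033, and besides EXOSC2 and BTG1 no difference changed sign. Much of this was fixed in advance. All members lay above the threshold on both arrays, so omitting the filter or raising values could not alter a member. The 75th percentile could only drop members, and averaging could alter only CNOT6L. At the 75th percentile 43 members were left. The RNA-binding factors then had a median of -0.48 over 3 genes, the microRNA genes had 7 of 9 lower with their median still at -0.24, and the other exosome genes had 1 at least 1.5-fold lower. Medians moved there to -0.23 for the nonsense-mediated decay members, -0.17 for the other deadenylation genes, -0.15 for the other decapping genes, -0.13 for the other exosome genes (-0.03 with no filter), -0.05 for the other microRNA genes, -0.04 for the other nonsense-mediated decay genes and -0.08 for mRNAs with AU-rich elements, the one list median that changed sign under any setting. The deposited values of 1 other microRNA pathway gene, LIN28A, differed by over 1.5-fold, with its NC value under the threshold, and this count was 0 genes at the 75th percentile, with averaged probe sets and with raised values. Precision is limited by there being 1 array per group, and scanner signals over background were not analysed here.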
